A study of Homo sapiens with 16 samples.

Results

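The 4 distal sites described here, in all 16 deposited tracks, had some of the largest gains of p65 signal in SW480 cells carrying ERβ. At each of them the mean signal was 13.7 to 18.7 times that of mock in SW480, where mock lay near the input level. In HT29 no difference between ERβ and mock was detected. Each is a 200-bp window of the GRCh38 genome and goes by the gene name that came with its coordinates: the LINC01931 site (chr2:149741601-149741800), the TRIM56 site (chr7:101104851-101105050), the ENSG00000224700 site (chr11:132065001-132065200) and the ENSG00000239991 site (chr3:55157351-55157550). They are 4 of 6353 p65 sites called in at least 2 of 3 replicates of any condition, of which 4435 were distal. The centre of a distal site lies outside every promoter, the stretch that runs from 1 kb before any transcription start site to 100 bp past it. They were selected on the difference between SW480 ERβ and SW480 mock libraries, so that difference is given as a description and was not tested.

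The study mapped p65 by ChIP-Seq in SW480 and HT29, established lines of human colorectal adenocarcinoma, in each case stably transfected with ERβ or with an empty control vector (mock). All cells, mock and ERβ alike, received TNFα at 30 ng/ml for 30 minutes, in medium free of phenol red with charcoal-stripped serum and without added estradiol, and were crosslinked with disuccinimidyl glutarate (DSG) and formaldehyde. There were 3 ChIP libraries for each of SW480 mock, SW480 ERβ, HT29 mock and HT29 ERβ, and 1 input library for each. The ERβ inputs were sequenced for another series, and whether a transfected line is a single clone is not given in the sources used here. The libraries of a group are described as biological replicates, and a p-value concerns the spread between libraries. In the limma test of the HT29 sites that spread was taken from a trend over all sites by signal. It was not the spread of the site's own libraries.

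p65, encoded by RELA, is the transactivating subunit of NFκB. TNFα frees it from its cytoplasmic inhibitor within minutes, and it then binds κB sites, short G- and C-rich motifs found at promoters and, more often, at enhancers far from genes. ERβ, encoded by ESR2, is a nuclear receptor that binds estrogen response elements and can also meet other factors on chromatin. The gene nearest to an enhancer is a name for the site and need not be the gene it acts on.

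The ChIP libraries held 24.3 to 43.1 M uniquely mapped reads and the inputs 35.0 to 65.9 M (M stands for 1e6). ESR2 coding exons, which a transgene without introns adds to, had 2.51 to 7.99 times the density of ESR2 introns in the 6 ERβ ChIP libraries, against 1.08 to 1.62 times in the 6 mock ChIP libraries. Enrichment differed between libraries. At 574 sites called in all 4 conditions the median signal was 8.34 and 9.88 in replicate 1 of HT29 ERβ and HT29 mock, against 4.06 to 5.28 in the other 4 HT29 libraries, and 6.14 to 12.4 in SW480 ERβ against 4.99 to 5.55 in SW480 mock.

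The base sequences are shown because the 4 windows, alike in signal, differ in the motifs they hold. They were read from the plus strand of GRCh38, 5′ to 3′, and capitals mark matches on either strand to the 10-base κB consensus, exact or with 1 mismatch, and to the AP-1 motif (TGAGTCA or TGACTCA).
LINC01931 site: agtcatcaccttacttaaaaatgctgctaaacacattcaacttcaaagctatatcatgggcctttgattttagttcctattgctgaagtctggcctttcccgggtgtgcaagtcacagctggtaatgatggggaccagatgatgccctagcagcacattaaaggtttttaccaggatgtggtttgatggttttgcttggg
TRIM56 site: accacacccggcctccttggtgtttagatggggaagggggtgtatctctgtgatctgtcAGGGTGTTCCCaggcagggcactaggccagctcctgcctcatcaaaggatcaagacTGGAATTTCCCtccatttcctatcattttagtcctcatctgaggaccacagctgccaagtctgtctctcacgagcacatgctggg
ENSG00000224700 site: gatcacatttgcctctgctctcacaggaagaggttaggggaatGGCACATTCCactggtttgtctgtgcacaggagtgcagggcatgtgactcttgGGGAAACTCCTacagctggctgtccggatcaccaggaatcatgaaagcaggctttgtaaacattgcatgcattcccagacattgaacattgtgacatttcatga
ENSG00000239991 site: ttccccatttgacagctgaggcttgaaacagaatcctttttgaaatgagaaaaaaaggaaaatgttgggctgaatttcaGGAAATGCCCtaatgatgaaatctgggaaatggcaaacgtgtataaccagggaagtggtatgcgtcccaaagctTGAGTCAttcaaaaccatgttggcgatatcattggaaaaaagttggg

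The TRIM56 site holds an exact κB match, GGAATTTCCC, at bases 117 to 126 counted from its first base. The ENSG00000224700 site holds another, GGGAAACTCC, at bases 97 to 106, so its centre lies 1 bp from the middle of the window. At the ENSG00000239991 site the best match, GGAAATGCCC at bases 80 to 89, has 1 mismatch, and an AP-1 match, TGAGTCA, follows at bases 154 to 160. AP-1 is the dimer of FOS and JUN proteins. The LINC01931 site, which had the highest signal of the 4, holds no κB match with 0 or 1 mismatch; its closest matches have 2 mismatches.

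An exact κB match was present in 61.3% of the 4435 distal sites, in 54.7% of the 2419 distal sites called in SW480 ERβ alone and in 4.89% of windows of the same length 1000 bp to either side of distal sites. With 1 mismatch allowed the share was 93.9% of distal sites and 47.7% of the windows beside them. The LINC01931 site therefore belongs to the minority of distal sites without either. AP-1 was found in 15.8% of distal sites and 3.39% of windows beside them.

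Of the other motifs searched, the LINC01931 site holds 1 RUNX match (TGTGGT, both strands searched), at bases 177 to 182, and the TRIM56 site holds 2. RUNX proteins are DNA-binding factors of blood, bone and epithelium. Their motif was found in 22.6% of distal sites, 27.7% of the distal sites called in SW480 ERβ alone and 14.2% of windows beside distal sites. The ENSG00000224700 site holds 3 TEAD matches (GGAATG), the motif of the factors that partner YAP, and 1 FOXA match (TGTTTAC). TEAD was found in 20.6% of distal sites and 10.6% of windows beside them, and FOXA in 5.95% and 2.41%. The ENSG00000239991 site holds 1 CCAAT match. None of the 4 windows holds an estrogen response element, and the full element occurs in 3 of 4435 distal sites. None holds a single arm of it, GGTCA, which was found in 35.7% of distal sites and 30.8% of windows beside them. These are matches of letters in a 200-bp window, and binding by the factors named was not measured. The share of G and C was 43.5% at the LINC01931 site, 54.0% at the TRIM56 site, 48.5% at the ENSG00000224700 site and 40.5% at the ENSG00000239991 site, with a median of 53.0% over distal sites.

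The gene names and the annotation (GENCODE release 44) did not fully match. The LINC01931 site lies in an intron of MMADHC-DT, a long non-coding RNA (lncRNA) that runs divergently from MMADHC, and 3947 bp from the end of the lncRNA gene LINC01931, whose start is 117 kb away. The ENSG00000224700 site lies in an intron of NTM, which encodes the neuronal adhesion protein neurotrimin, with the start of the lncRNA ENSG00000224700 80.4 kb away. The TRIM56 site lies between genes, 6984 bp beyond the end of TRIM56 and 19.5 kb from its start. The ENSG00000239991 site also lies between genes, 18.3 kb from the start of the lncRNA ENSG00000239991 and 333 kb from WNT5A, the nearest protein-coding start on that side. On the other side the nearest protein-coding start, that of LRTM1, is closer, at 190 kb. Of the 4 windows, 2 are thus intronic and 2 intergenic, in a set of distal sites with 2561 in introns, 1523 between genes and 351 in exons.

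Signal is the mean tag density over the 200 bp, as tags per base after scaling to 10 M tags of 100 bp. At the LINC01931 site it was 12.6, 15.3 and 9.08 in SW480 ERβ replicates 1 to 3, and 0.848, 1.04 and 0.454 in SW480 mock. In HT29 it was 1.17, 0.710 and 0.504 in mock and 0.370, 0.320 and 0.617 in ERβ. Thus the 3 SW480 ERβ libraries stood apart from the other 9, while the HT29 mock and ERβ libraries overlapped.

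At the TRIM56 site, downstream of the gene for an E3 ubiquitin ligase of innate antiviral signalling, the SW480 ERβ libraries gave 7.19, 12.4 and 6.71 and the SW480 mock libraries 0.273, 0.672 and 0.778. The HT29 mock libraries gave 1.60, 0.609 and 0.440, and the HT29 ERβ libraries 0.777, 0.982 and 0.637. HT29 mock replicate 1, a library with high signal at sites in general, was the highest of the 9 libraries outside SW480 ERβ.

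At the ENSG00000224700 site the signal was 7.84, 10.7 and 8.26 in SW480 ERβ and 0.749, 0.963 and 0.249 in SW480 mock. It was 0.488, 0.25 and 0.39 in HT29 mock and 0.489, 0.320 and 0.685 in HT29 ERβ. This site had the smallest spread among SW480 ERβ libraries, with an SD of 1.53 about a mean of 8.93 (n = 3).

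At the ENSG00000239991 site the signal was 6.70, 10.1 and 4.89 in SW480 ERβ and 0.310, 0.360 and 0.488 in SW480 mock. It was 0.190, 0.240 and 0.160 in HT29 mock and 0.265, 0.430 and 0.200 in HT29 ERβ. Here the HT29 means, 0.197 in mock and 0.298 in ERβ, were the lowest of the 4 sites, next to HT29 inputs of 0.160 and 0.180. Across the 4 sites SW480 ERβ replicate 2 was the highest library, as it was at the sites called in all 4 conditions.

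**Figure D1:**
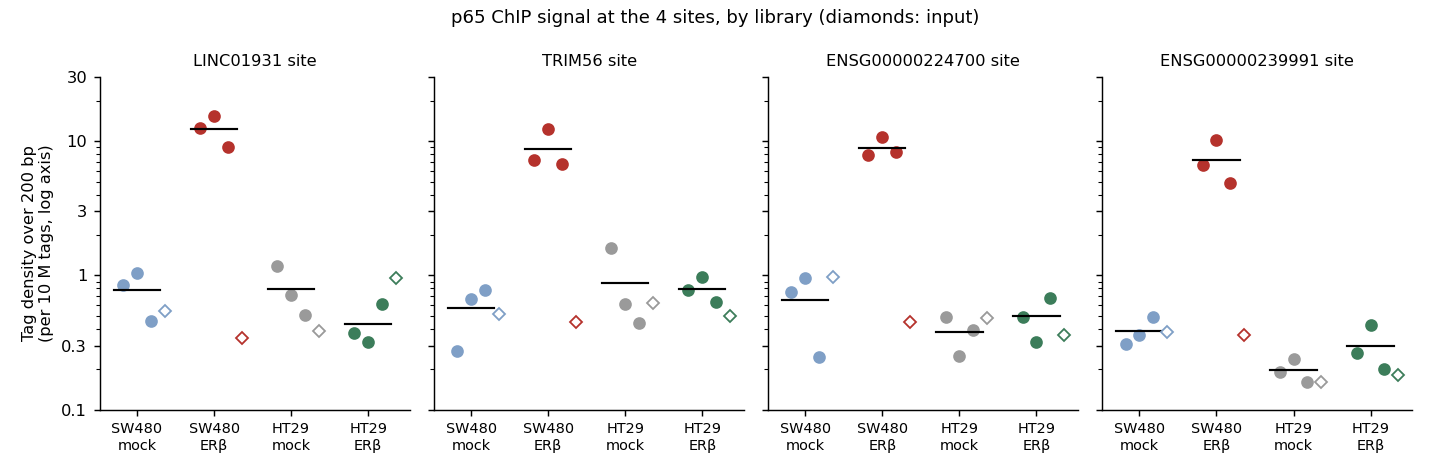
Mean tag density over the 200 bp of each of the 4 sites (log axis, per 10 M tags), with 1 dot per ChIP library, a bar at the mean of 3 and an open diamond for the input of that line and ERβ status. The SW480 ERβ dots lie between 4.89 and 15.3, and all other dots lie at or below 1.60, with the inputs between 0.160 and 0.970.

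The mean of SW480 ERβ was 15.8 times that of SW480 mock at the LINC01931 site, 15.2 times at the TRIM56 site, 13.7 times at the ENSG00000224700 site and 18.7 times at the ENSG00000239991 site. SW480 mock was 1.45, 1.10, 0.67 and 1.02 times its own input in the same order, so these ratios divide by values near input. On the log2(signal + 1) scale, which understates the change of low values, the differences were 2.89 ± 0.25 (SE, n = 3 against 3), 2.60 ± 0.29, 2.60 ± 0.23 and 2.52 ± 0.27 in the same order. These differences ranked 1, 3, 4 and 5 among distal sites. Rank 2, at 2.63, was an intronic site of PCAT1 on chromosome 8 that is not among the 4, and the next in rank after them were a site 15.5 kb from ENSG00000233817 on chromosome 9 and a second PCAT1 site, both at 2.49. The second PCAT1 site differed from the 4 in that it was called in all 4 conditions.

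By the signal itself the 4 sites were not at the top. With means of 12.3 ± 3.13, 8.76 ± 3.14, 8.93 ± 1.53 and 7.24 ± 2.66 (SD, n = 3) in SW480 ERβ they ranked 262, 567, 552 and 877 of 6353 sites. As a scale, the promoter sites of TNFAIP3 and NFKBIA, the TNFα-induced feedback inhibitors of NFκB, had 27.6 ± 8.46 and 27.5 ± 8.04 in the same libraries and 27.4 ± 3.35 and 20.001 ± 4.82 in SW480 mock. In SW480 mock the 4 sites instead stood low, with 3.10% to 16.6% of all sites below them. Selection on the SW480 difference favours low mock values.

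All 4 sites were called in SW480 ERβ alone, as were 2419 of the 4435 distal sites (54.5%). At all 4 every SW480 ERβ library was above every SW480 mock library, as was so at 54.7% of distal sites. The median distal difference in SW480 was 0.75, in a set where those 2419 sites entered only through SW480 ERβ libraries. Its sign thus partly follows from the calling, and it does not measure how common a gain with ERβ was. The 4 sites were selected from the upper end of these differences. With each library divided by its median at the sites called in all 4 conditions, the median distal difference was 0.20 and those of the 4 sites were 2.33, 2.09, 2.07 and 2.05, with the ranks unchanged at 1, 3, 4 and 5.

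The signal over 200 bp rested on 62.1 to 92.3 tag equivalents per SW480 ERβ library at the LINC01931 site and 33.4 to 74.5 at the other sites. The 9 other ChIP libraries held 1.18 to 11.8 tag equivalents per site, so differences among them were barely measurable at this depth.

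The profiles showed narrow peaks. In SW480 ERβ the summit lay 14 to 29 bp from the window centre at the LINC01931 site, −3 to 32 bp at the TRIM56 site and 16 to 25 bp at the ENSG00000224700 site, and the width at 50% of the summit height was 201 to 281 bp. At the TRIM56 site the κB match is centred 21 bp from the window centre, within the range of its summits, and at the ENSG00000224700 site the match, centred 1 bp from the window centre, lies just before them. The RUNX match of the LINC01931 site is 79 bp from the centre, outside the range of its summits. The summit heights at that site were 15.2, 17.9 and 11.4.

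The ENSG00000239991 peak was double. Its second summit belongs to a separate called site 400 bp away (chr3:55156951-55157150), also called in SW480 ERβ alone, with 4.32 ± 0.50 (SD, n = 3) in SW480 ERβ, 0.269 ± 0.055 in SW480 mock, 0.160 ± 0.017 in HT29 mock and 0.210 ± 0.061 in HT29 ERβ. In SW480 ERβ replicate 3 this second summit was the higher one, and the width at 50% reached 492 and 519 bp in replicates 1 and 3 against 216 bp in replicate 2. Its sequence is shown as the neighbour with no κB match, exact or with 1 mismatch, and no AP-1 match; it holds a CCAAT match and a single arm of the estrogen response element, GGTCA.
neighbour of the ENSG00000239991 site: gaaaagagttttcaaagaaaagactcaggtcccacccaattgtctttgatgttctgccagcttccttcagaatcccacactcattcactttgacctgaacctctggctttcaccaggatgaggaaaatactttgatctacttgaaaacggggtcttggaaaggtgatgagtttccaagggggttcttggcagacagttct

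**Figure D2:**
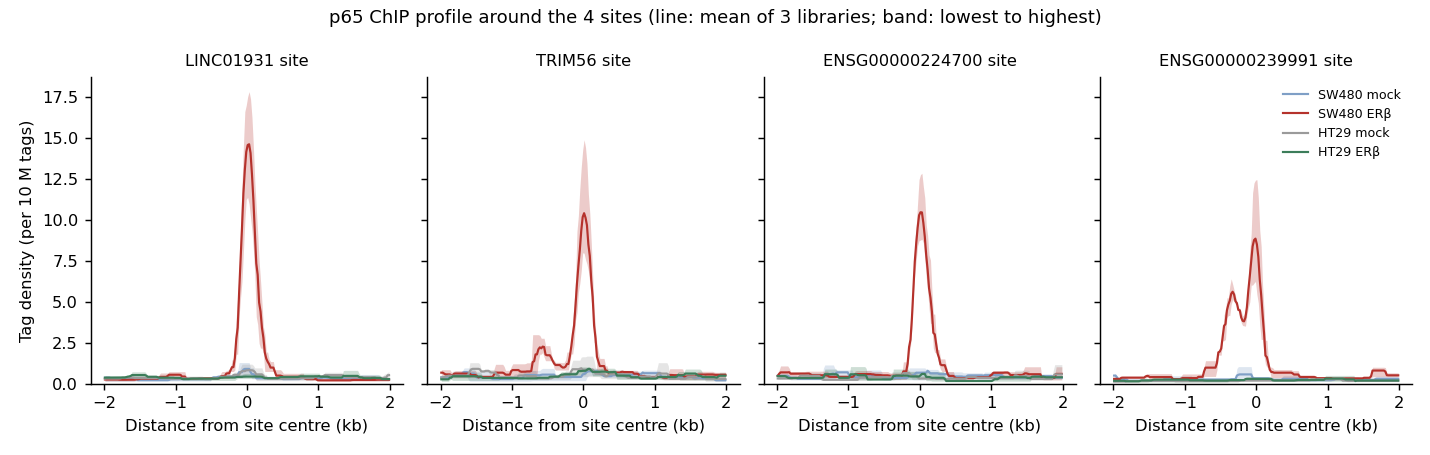
Tag density (per 10 M tags) over 2 kb to either side of each site centre. Lines are means of 3 libraries, and bands run from the lowest to the highest library. The SW480 ERβ line rises far above the other lines, as a single peak at the first 3 sites, with a low shoulder upstream at the TRIM56 site, and as a double peak at the ENSG00000239991 site, where the second peak is about 0.4 kb upstream. The SW480 mock line at the LINC01931 site also has a low rise at the centre, to a mean of 0.91.

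HT29 provided the one comparison of ERβ with mock that the selection did not use. No gain with ERβ was detected at any of the 4 sites there. The limma test gave a log2 difference of −0.31 (95% interval −0.68 to 0.05; adjusted p = 0.995) at the LINC01931 site and −0.02 (−0.48 to 0.44; limma adjusted p = 0.997) at the TRIM56 site. It gave 0.12 (−0.18 to 0.42) at the ENSG00000224700 site and 0.11 (−0.11 to 0.33) at the ENSG00000239991 site, each at a limma adjusted p of 0.995. The highest upper bound of these HT29 intervals was 0.44, on a scale that understates the change of low values. The intervals rest on the trend over all sites and can be too narrow where a site's own libraries vary more. At the TRIM56 site the HT29 mock libraries ran from 0.440 to 1.60. The SW480 differences were selected to be large, so the difference between the lines was not tested.

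The mock and ERβ libraries of HT29 overlapped at all 4 sites, as at all but 5.7% of distal sites. Across all 6353 sites 0 passed an adjusted p of 0.05 by limma (0% of all sites and 0% of distal sites), with 124 under an unadjusted p of 0.05, so no site passed, among the 4 or elsewhere. The median HT29 difference over all sites was −0.17, to which the LINC01931 value of −0.31 is to be compared. With libraries scaled at the sites called in all 4 conditions that median was 0.00, the LINC01931 difference was −0.19 and the TRIM56 difference turned to 0.17. With the replicate number as a block, 146 sites were lower and 2 higher with ERβ in HT29, none of them among the 4, whose adjusted p ran from 0.27 to 0.96. Block and scaling together left 2 sites past the threshold.

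HT29 signal was also set against input. The mean of the 6 HT29 ChIP libraries over the mean of the HT29 inputs was 0.92 at the LINC01931 site, 1.51 at the TRIM56 site, 1.04 at the ENSG00000224700 site and 1.46 at the ENSG00000239991 site. At the other 2415 distal sites called in SW480 ERβ alone the median ratio was 2.11, with 5.51%, 29.9%, 10.1% and 27.9% of them below the 4 sites in the same order. The HT29 ERβ input at the LINC01931 site, 0.95, was the highest of the 4 inputs there and above every HT29 ERβ ChIP library, so the ratio at that site rests on it. Against the HT29 mock input alone the pooled ratio there was 1.60, beside a median of 2.34 at the other sites, an alternative chosen after seeing the data. Each group over its own input gave 2.06 in HT29 mock and 0.46 in HT29 ERβ at the LINC01931 site, 1.42 and 1.61 at the TRIM56 site, 0.78 and 1.38 at the ENSG00000224700 site, and 1.23 and 1.66 at the ENSG00000239991 site.

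**Figure D3:**
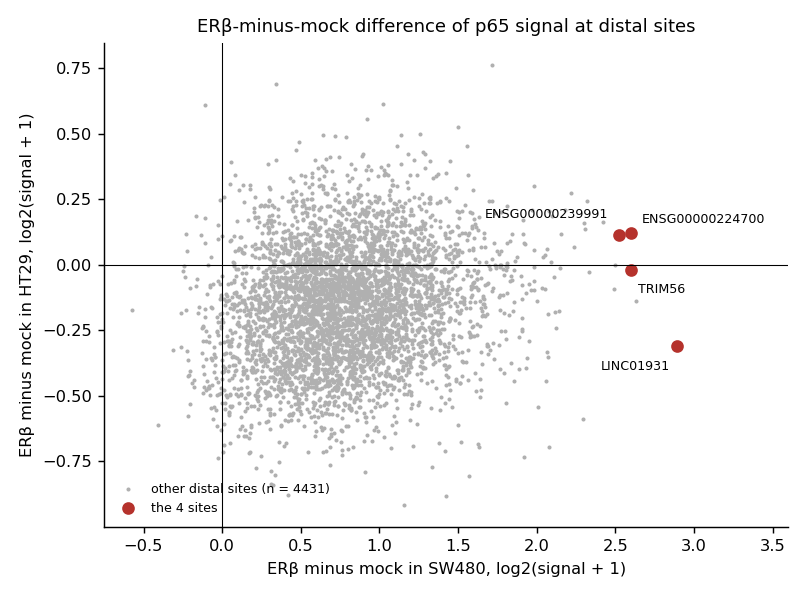
ERβ minus mock in log2(signal + 1) at each distal site, in SW480 on the x axis and in HT29 on the y axis, with the 4 sites in red and the other 4431 in grey. The 4 sites lie between 2.52 and 2.89 on the x axis, where they were selected, and between −0.31 and 0.12 on the y axis, inside the range of the other sites.

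Input over the surroundings, which follows the local copy number, was compared between libraries. Over 100 kb centred on the site, the SW480 ERβ and SW480 mock inputs were 0.97 and 0.92 of the library's median 100-kb bin at the LINC01931 site, 1.28 and 1.38 at the TRIM56 site, 1.34 and 1.31 at the ENSG00000224700 site and 0.99 and 0.92 at the ENSG00000239991 site. In HT29 the ERβ and mock inputs were 1.11 and 1.16, 1.48 and 1.25, 1.16 and 1.11, and 0.58 and 0.59 in the same order. The ENSG00000239991 and ENSG00000224700 regions were lower in HT29 than in SW480, by the wider margin at the first, and the part of that in the HT29 ChIP signal of 0.160 to 0.430 at the ENSG00000239991 site was not tested. With 1 input per condition, inputs were not tested.

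The surroundings of the sites were not flat in SW480 ERβ. Outside the central 2 kb, the mean SW480 ERβ signal over 100 kb was 1.40 times that of SW480 mock at the TRIM56 site and 1.31 times at the ENSG00000239991 site, against 1.11 times at both the LINC01931 and ENSG00000224700 sites. The median at the other 2415 distal sites called in SW480 ERβ alone was 1.03, and 99.4% and 98.8% of these were below the first pair and 81.2% below each of the second. In HT29 the same ratio was 0.93, 0.96, 1.02 and 0.95 at the TRIM56, ENSG00000239991, LINC01931 and ENSG00000224700 sites, with a median of 0.98.

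At the TRIM56 locus this came with further peaks. A called site 3.5 kb away (chr7:101108351-101108550), also in SW480 ERβ alone, had 5.82 ± 0.63 (SD, n = 3) in SW480 ERβ, 1.19 ± 0.46 in SW480 mock, 1.23 ± 0.38 in HT29 mock and 0.989 ± 0.205 in HT29 ERβ. Its sequence is shown for its κB matches, capitalised as above: an exact match that reads on both strands and 5 with 1 mismatch, counting each strand. It also holds a single arm of the estrogen response element, found in 35.7% of distal sites and 30.8% of windows beside them.
neighbour of the TRIM56 site: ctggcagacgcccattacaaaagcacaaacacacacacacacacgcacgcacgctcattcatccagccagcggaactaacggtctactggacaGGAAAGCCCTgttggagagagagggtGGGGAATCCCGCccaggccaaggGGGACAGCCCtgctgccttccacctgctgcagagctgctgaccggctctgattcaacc

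At the TRIM56 locus 4 of 196 bins of 500 bp outside the central 2 kb had every SW480 ERβ library above 2 times the highest SW480 mock library and the SW480 ERβ input, as 0.0179% of such bins of the genome did. They lay 3.25, 3.75, 17.75 and 19.75 kb from the site, the last 2 of them with 2.28 ± 0.37 and 1.79 ± 0.19 in SW480 ERβ against 0.539 ± 0.018 and 0.522 ± 0.158 in SW480 mock. Not every peak of the locus stood apart from HT29: the bin of 500 bp 33.75 kb from the site had a mean of 2.04 in SW480 ERβ, 0.987 in SW480 mock, 1.86 in HT29 mock and 1.33 in HT29 ERβ. At −19.25 kb HT29 mock, at 1.29, was above SW480 ERβ, at 1.08. At 3.75 kb HT29 mock had 1.48 beside 3.27 in SW480 ERβ.

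The ENSG00000239991 region had 3 such bins, at 3.25, 28.25 and 32.25 kb, with 1.39 ± 0.20, 1.3 ± 0.60 and 1.49 ± 0.30 in SW480 ERβ and 0.359 ± 0.049, 0.280 ± 0.074 and 0.303 ± 0.171 in SW480 mock. The LINC01931 region had 1, at −4.75 kb with 0.959 ± 0.194 against 0.278 ± 0.064, and the ENSG00000224700 region had 1, at −9.25 kb with 1.05 ± 0.14 against 0.305 ± 0.119. None of these bins besides the called neighbours reached the calling limits in 2 of 3 replicates. In HT29 0 of 196 bins met the same rule at any of the 4 sites, as 0.00189% of bins of the genome did. No other called site lay within 50 kb of the LINC01931 or ENSG00000224700 site.

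**Figure D4:**
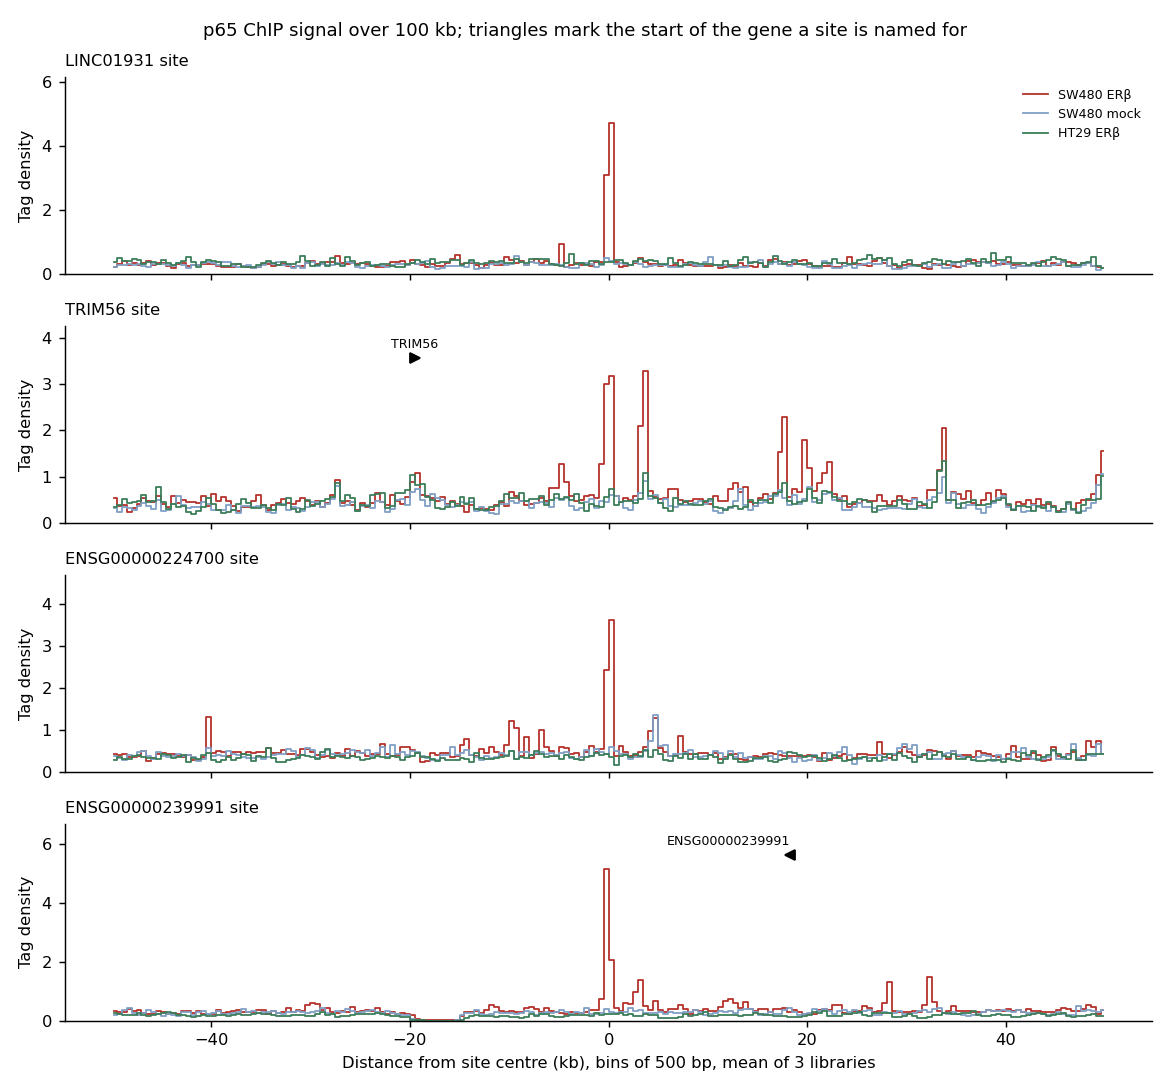
Mean tag density (per 10 M tags) of 3 libraries in bins of 500 bp over 100 kb, with the distance from the site centre in kb on the x axis and the starts of the genes the sites are named for, where they fall in the range, as triangles pointing along the gene. SW480 ERβ rises at each centre, and at the TRIM56 site also at 3.5 kb and near 17.75 and 19.75 kb, and lies above SW480 mock and HT29 ERβ there. HT29 mock is not drawn, and it had 1.48 at 3.75 kb from the TRIM56 site. Near 33.75 kb HT29 ERβ and SW480 mock rise as well, to 1.33 and 0.987 beside 2.04 in SW480 ERβ.

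The genes nearby were then read at their promoters, as the mean density over the promoter of each gene. The TRIM56 site has 12 gene starts within 100 kb, 7 of them protein-coding; the ENSG00000239991 site has 3, all lncRNAs, the ENSG00000224700 site has 1 and the LINC01931 site has 0. With the nearest protein-coding start on each side and the genes the sites lie in or are named for, 24 promoters were read.

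In SW480 ERβ the mean density over these promoters, a longer window than the 200 bp of a site, was below the density at the 4 sites. This order did not hold in the other groups: in HT29 the TRIM56 promoter had a higher mean than the TRIM56 site, which had 0.882 in mock and 0.799 in ERβ. TRIM56 had 0.757, 0.693 and 0.805 in SW480 ERβ and 0.487, 0.544 and 0.685 in SW480 mock, so that the lowest library of one group lay just above the highest of the other, and it had 0.966 ± 0.123 in HT29 mock and 0.857 ± 0.282 in HT29 ERβ. This separation was not particular to TRIM56: every SW480 ERβ library lay above every SW480 mock library at 8 of the 24 promoters, MUC17, MUC12-AS1, LINC01931, LRTM1 and WNT5A among them, and at 8.3% of all 62663 promoters. These SW480 values share the contrast on which the sites were selected and were not tested. AP1S1, a subunit of the clathrin adaptor AP-1 and no relation of the transcription factor of that name, had 0.884 ± 0.172 in SW480 ERβ and 0.672 ± 0.053 in SW480 mock. The mucin gene MUC17 had 0.515 ± 0.134 and 0.310 ± 0.034, and its neighbour MUC12-AS1 0.486 ± 0.088 and 0.247 ± 0.020. Both were higher in HT29 than in SW480 ERβ, MUC17 with 0.726 in HT29 mock and 0.730 in HT29 ERβ, and MUC12-AS1 with 0.713 and 0.543. AP1S1 was lower in HT29, with 0.522 and 0.516.

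Near the other 3 sites the promoters lay near background, and so did some near the TRIM56 site, such as RN7SKP54 with 0.470 in SW480 ERβ. NTM, the host gene of the ENSG00000224700 site, had 0.462 ± 0.091 in SW480 ERβ and 0.434 ± 0.082 in SW480 mock, and OPCML, a related adhesion gene 1467 kb away, had 0.503 ± 0.128 and 0.440 ± 0.093. WNT5A, a Wnt ligand, had 0.453 ± 0.036 and 0.297 ± 0.098. LINC01931 had 0.361 ± 0.040 and 0.253 ± 0.027. The mean was higher in SW480 ERβ than in SW480 mock at 12 of 12 promoters near the TRIM56 site and at 8 of the 12 near these sites, beside 51.4% of all promoters. It was lower at the other 4. MMADHC, a gene of vitamin B12 metabolism, and MMADHC-DT had 0.505 ± 0.128 and 0.365 ± 0.065 in SW480 ERβ and 0.544 ± 0.125 and 0.480 ± 0.094 in SW480 mock. The lncRNAs ENSG00000224700 and LINC02017 had 0.408 ± 0.115 and 0.231 ± 0.028 in SW480 ERβ and 0.481 ± 0.025 and 0.278 ± 0.075 in SW480 mock. No promoter of the 24 had every SW480 mock library above every SW480 ERβ library, as 4.45% of all promoters did.

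In HT29, where the promoters could be tested, 0 of the 24 differed between ERβ and mock by limma over the promoters of all 62663 annotated genes, with every adjusted p at 1 and the lowest unadjusted p at 0.10. Their differences ran from −0.17 at MUC12-AS1 to 0.13 at RN7SKP54. Of all promoters 5 passed (0.00798%): TAF11L6, HNRNPH1, OR6L1P, GGT4P and ENSG00000277501, named after their values were seen, each with no signal above 0.09 in any HT29 library.

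The 4 sites varied alike over the 12 ChIP libraries, with pairwise Pearson correlations of log2(signal + 1) from 0.95 to 0.99, a description that follows largely from their selection, since 3 libraries are high at each. The other distal sites closest to their mean pattern were near C2CD2 (r = 0.995), ENSG00000241456 (r = 0.993) and PIK3AP1 (r = 0.989), all called in SW480 ERβ alone. They had 3.4, 4.62 and 7.25 in SW480 ERβ and 0.340, 0.440 and 0.646 in SW480 mock. The first of these is well below the lowest of the 4 in SW480 ERβ, 7.24, so a like pattern came with unlike levels.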

How the data were processed

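p65 ChIP-Seq was analysed in 12 ChIP and 4 input libraries, grouped by the sample labels. Per the labels and methods, the authors used STAR to place uniquely mapping reads on GRCh38 and HOMER to build the tracks. The deposited signal is tag density scaled by the authors to 10 M tags and 100-bp fragments, with stretches under 0.05 not listed, and intervals are averaged, so counts and count tests were not used. Depth came from the sequencing statistics of the study. The 4 sites, gene lists, motifs and tests were chosen with earlier results of these data known.

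Sites were called here (Python 3.11.15, numpy 2.4.6) in 200-bp windows at 50-bp steps with a 4-fold excess over input and over the surrounding 10 kb, a Poisson tag minimum of 14 to 18 (FDR 0.001) and 2 of 3 replicates. HT29 ERβ and HT29 mock were compared with limma 3.58.1 in R 4.3.3 on log2(signal + 1), with Benjamini-Hochberg adjustment over all sites or all promoters, after a check on simulated data. Tag equivalents are density times length over 100 bp, rescaled to the library's reads. Motifs were searched as exact letters on both strands. In HT29, deviations from the group means correlated at 0.59, 0.24 and 0.26 over sites for numbers 1, 2 and 3, and at −0.42 to 0.28 for unlike numbers. Mock 2 with ERβ 3, at 0.28, was above the like pairs of numbers 2 and 3, so only number 1 stood apart. In SW480 the like numbers gave 0.31, 0.14 and 0.24, and unlike numbers −0.24 to 0.02. The text names the 4 sites, genes starting within 100 kb, the nearest protein-coding start on each side, the genes a site lies in, called sites within 50 kb, the 2 distal sites next in rank, 2 scale promoters and the 3 most similar distal sites. Of the genes and called sites this rule names, some are not reported here.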

Additional observations from a re-analysis of the deposited data

How the results depend on the processing

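In HT29 none of the 4 sites passed the threshold in any fit that held it. No site of the 4 had a mean signal of 1 over the HT29 libraries, so that filter gave no value for them. The TRIM56 difference, −0.02, changed sign to 0.012 with a pseudocount of 0.25, 0.044 with input subtracted, 0.17 with scaling at the sites called in all 4 conditions, with or without the replicate block, and 0.24 without replicate 1 of both HT29 groups, and ran from −0.19 to 0.24 when single libraries were left out, 0.24 being the value without HT29 mock replicate 1 and 0.045 that without HT29 ERβ replicate 3. The other 3 sites kept their sign throughout. Sites lower with ERβ numbered 0, 146 with the replicate block, 27 without replicate 1 of both groups and 0 to 1 with single libraries left out; sites higher numbered 2 with the block, alone or with scaling, the latter chosen after seeing the data. Promoters past the threshold numbered 5, 8 by the highest 200-bp window, 1 with the block, 0 with scaling or with a minimum mean of 0.5, and 9 to 19 with single libraries left out, and none was near the 4 sites.

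In SW480 the differences at the LINC01931, TRIM56, ENSG00000224700 and ENSG00000239991 sites were 3.62, 3.45, 3.43 and 3.51 with a pseudocount of 0.25, and 1.76, 1.45, 1.47 and 1.33 with a pseudocount of 4. They were 2.53, 2.15, 2.18 and 2.09 over 400 bp, 2.33, 2.09, 2.07 and 2.05 with scaling, and 3.34, 2.99, 3.23 and 2.87 with input subtracted. Without single libraries they ran from 2.28 to 3.08. With a pseudocount of 4 the sites ranked 2, 7, 6 and 13 among distal sites, and with 0.25 they ranked 1, 4, 5 and 3. The ratio of HT29 ERβ to mock input was 1.05 over 20 kb at the LINC01931 site and 1.10 over 1 Mb at the TRIM56 site, against 0.96 and 1.18 over 100 kb. The cause of these shifts was not tested. Outside SW480 ERβ the 4 sites held at most 11.8 tag equivalents a library, which limits what HT29 could show.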
